A study of Homo sapiens with 7 samples.

Results

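The reporter constructs described here come from 2 regions at genes of pre-mRNA splicing factors, 1 inside SF3A1 and 1 upstream of HNRNPC. They were chosen by the region written in each construct's name (1 on chromosome 22, 1 on chromosome 14, in hg38 coordinates). The rule uses no measured value, but the regions were picked with earlier results of these data known. In all, 15 of the 1383 constructs in the authors' deposited tables met that rule, 9 at SF3A1 and 6 at HNRNPC, in 2 of 380 regions. At SF3A1 they were 5 mutant and 4 wild-type constructs, and at HNRNPC they were 6 mutant constructs with 0 wild-type rows.

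The study used a lentiviral massively parallel reporter assay, in which each candidate regulatory sequence is integrated with a barcode, and the RNA of the barcode is set against its genomic DNA (gDNA). The host was C4-2B, an established human prostate cancer line of the LNCaP lineage, so all groups were read in the same cells. The groups were mutant sequence, with 1 tested change each, wild-type sequence, and scrambled sequence. The series had 7 libraries, 3 of RNA and 3 of gDNA taken 48 hours after transduction and 1 that linked barcodes to sequences. The files give 1 estimate per construct over the replicates, with no value per library. The depth and the spread between replicates are therefore unknown, and every error, interval and p printed is that of the authors' model or is computed from its errors. An estimate is the natural log of an odds ratio, taken here as RNA over gDNA. It is positive where mutant exceeded wild-type, or wild-type exceeded scrambled, as read from the names of the files. The value after ± is its standard error, a fold is a fold of odds, and a construct is called where its adjusted p was under 0.05.

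SF3A1 encodes a subunit of the SF3a complex, part of the U2 small nuclear ribonucleoprotein that recognises the branch point of an intron early in spliceosome assembly. HNRNPC encodes an abundant nuclear protein that packages nascent transcripts and binds runs of uridine in them, where it can keep the splicing machinery from cryptic exons. A reporter of this kind reads the capacity of a DNA sequence to raise or lower transcription, not splicing, and the gene near a region need not be the gene it acts on.

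The SF3A1 region spans 1076 bp from base 30351639 of chromosome 22 and lies inside the SF3A1 gene, which runs from 30331988 to 30356894 on the minus strand in RefSeq's GRCh38.p14. Its nearer edge is 4180 bp downstream of the annotated start of SF3A1. The next protein-coding gene on that side, the coiled-coil gene CCDC157 on the plus strand, begins 3910 bp away, and its body overlaps the 5′ end of SF3A1. On the other side TBC1D10A, which encodes a Rab GTPase-activating protein, lies 24698 bp away. Whether the region covers exon or intron of SF3A1 was not resolved here. The HNRNPC region spans 349 bp from base 21270506 of chromosome 14 and lies between protein-coding genes, the only genes looked at here. It is 1064 bp upstream of the annotated start of HNRNPC, a minus-strand gene from 21209147 to 21269442. The nearest protein-coding gene on the other side is RPGRIP1, which encodes a protein of the photoreceptor cilium, at 9229 bp.

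Sites are numbered along each region from the lower to the higher coordinate. The 5 SF3A1 sites lay within 325 bp, with gaps of 156, 119, 13 and 37 bp, and none lay in the part of the region nearest its start. All 5 SF3A1 mutants were substitutions, a T-to-G change at site 1, a T-to-C change at site 4 and A-to-G changes at sites 2, 3 and 5. At HNRNPC, mutants 1 and 2 were T-to-C changes 34 bp apart near the start of the region. The other 4 HNRNPC mutants crowded together near its end, 235 bp further on. They were a 2-base deletion, a C-to-A change, a 1-base deletion of the base next to that C, and a T-to-C change of the same base that the 1-base deletion removes, as the changes are written in the construct names. In the whole series 6 pairs of mutants changed a base in common, and this HNRNPC pair was 1 of them. Of the 9 substitutions at both loci, 7 (77.8%) were A-to-G or T-to-C changes, against 322 of 879 (36.6%) in the whole mutant table.

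The first comparison asked whether wild-type sequence from the SF3A1 region drove more reporter RNA than scrambled sequence. Wild-type constructs of sites 1, 2 and 4 did so, by 2.79- to 6.43-fold in the odds, and that of site 5 was not called. For site 1 the authors' deposited table gave an estimate of 1.20 ± 0.42, which is 3.32-fold over scrambled (95% interval 1.45 to 7.63, adjusted p = 0.00956). Site 2 had 1.03 ± 0.08, the tightest of the values called, at 2.79-fold with an interval of 2.37 to 3.29 (adjusted p = 1.82e-32 by the authors' deposited table). Site 4 had the highest value, 1.86 ± 0.51, or 6.43-fold with an interval of 2.38 to 17.4 (adjusted p = 6.89e-04, likewise from the authors' deposited table). The intervals of these 3 constructs overlapped one another. The wild-type construct of site 5 was listed by the authors' deposited table at -0.16 ± 0.09, 0.854 times the odds of scrambled sequence (95% interval 0.715 to 1.02, adjusted p = 0.117). It lay apart from the other 3, with its whole interval below each of theirs. Site 3 had no wild-type row.

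Calls at 3 of 4 SF3A1 wild-type constructs, all higher, compare with 62.3% called in either direction and 34.1% called higher over all 358 constructs that the authors' deposited table holds. The 3 estimates ranked 12, 21 and 24 from the highest of those 358, while that of site 5 ranked 232. Ranked by z the order among the 3 differs, with site 2 at percentile 98.5, site 4 at 80.9 and site 1 at 72.8, and the median of the 4 stands at percentile 76.8, against 93.9 by the estimate. The median over the 4 SF3A1 constructs was 1.11, against 0.01 over the whole table, where a called construct had a median size of 0.51, or 1.67-fold. Among the 43 regions with at least 4 wild-type constructs the SF3A1 median ranked 2 from the highest. SF3A1 was also 1 of 6 such regions with higher calls and 0 lower calls, where 32 had calls in both directions and 5 had lower calls only. It had the minimum of 4 wild-type constructs, and more constructs give more room for calls in both directions. These ranks describe where the region lay, and no test set it apart from the others.

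The precision of the 4 SF3A1 estimates of wild-type against scrambled was uneven. Sites 1 and 4 had standard errors of 0.42 and 0.51, at percentiles 93.4 and 95.1 of the wild-type table. The errors of 0.08 and 0.09 at sites 2 and 5 were below the table's median of 0.11. In the comparison of mutant against wild-type, the errors at sites 1 and 4 were 0.11 and 0.08. Whether the wider errors came from the wild-type or the scrambled side was not tested. The most precise pair against scrambled, sites 2 and 5, disagreed. With -0.16 at site 5 and 1.03 at site 2, the difference was -1.18 ± 0.12 by a two-sided z test built on the authors' errors (adjusted p = 2.35e-20 over all 837 pairs of wild-type constructs that shared a region). Site 5 also differed from site 1, by -1.36 ± 0.43 (adjusted p = 0.00376 in the same z test on the authors' errors). Its difference from site 4, 37 bp away, was -2.02 ± 0.52 (adjusted p = 2.74e-04 in that test on the authors' errors). Each estimate is against scrambled sequence, and whether the sites shared a scrambled sequence is not known here. Whether such a difference lies in the wild-type or the scrambled sequences was not tested. Sites 1, 2 and 4 did not differ from one another past the threshold, although the interval for site 4 minus site 2, -0.17 to 1.84 on the natural log scale, leaves room for a sizeable difference. Calls were made for 58.9% of all such pairs, so the 3 of 6 at SF3A1 are close to what the table held in general. Among 196 pairs of wild-type constructs with sites at most 50 bp apart and neither estimate beyond 10 in size, 10 differed by at least as much as sites 4 and 5 of SF3A1, themselves among the 10. The median difference over all 201 pairs at that spacing was 0.45 in size.

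With every wild-type z value divided by the robust spread of z over the table (4.12), 0 of the 3 SF3A1 calls and 0 of the 3 pair calls were kept. That spread was taken over all constructs, called ones included, and the setting kept 4 of 223 calls in the whole wild-type table. The loss is therefore not particular to SF3A1. Bonferroni adjustment kept 1 call, that of site 2, and 1 pair, site 5 against site 2. Benjamini-Yekutieli adjustment of the authors' p ended the call at site 1 (adjusted p = 0.0617).

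The second comparison asked whether a mutation changed the activity of the SF3A1 region. Mutants at sites 1, 4 and 5 were called higher than wild-type, by 1.20- to 1.48-fold in the odds, and 0 of 5 were called lower. The T-to-G mutant of site 1 had the highest estimate, 0.39 ± 0.11, which is 1.48-fold over wild-type (95% interval 1.19 to 1.83, adjusted p = 8.55e-04 by the authors' deposited table). For the A-to-G mutant of site 5 the authors' deposited table gave 0.28 ± 0.09, 1.32-fold with an interval of 1.12 to 1.56 (adjusted p = 0.00287). For the T-to-C mutant of site 4 it was 0.19 ± 0.08, 1.20-fold with an interval of 1.04 to 1.40 (adjusted p = 0.0268, again from the authors' deposited table). Each of these gains was below the median called size of 0.53, or 1.70-fold, in the mutant table. The A-to-G mutant of site 2 had 0.23 ± 0.12, with an interval of 0.984 to 1.60 in the odds ratio (adjusted p = 0.106 by the authors' deposited table). That of site 3 had -0.03 ± 0.09, with an interval of 0.813 to 1.16 (adjusted p = 0.829 by the authors' deposited table). Neither was called. Of the 4 A-to-G or T-to-C changes at SF3A1, those at sites 4 and 5 were called, against 57.5% of the 322 such changes in the whole mutant table.

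Over the whole mutant table, 56.6% of 1025 constructs were called in either direction and 29.5% were called higher, by the adjusted p of the authors' deposited table. The SF3A1 mutants had a median of 0.23, against 0.02 over all mutants. They lay close together, with a range of 0.42 from lowest to highest. Among the 58 regions with at least 5 mutants that range ranked 3 from the smallest, and the median range was 1.29. SF3A1 was 1 of 10 such regions with higher calls and 0 lower calls, where 45 had both. It had the minimum of 5 mutants, and more mutants give more room for a wide range and for calls in both directions. The median standard error of its mutants was 0.09, against 0.12 over all mutants. Between SF3A1 sites, 2 of 10 pairs of mutants differed, both with site 3 as the lower one, against 59.2% of all 1879 same-region pairs of mutants. Site 3 was lower than site 1, by -0.42 ± 0.14 (two-sided z test on the authors' errors, adjusted p = 0.00695). Site 5 was higher than site 3 by 0.31 ± 0.13 in the same test on the authors' errors (adjusted p = 0.0271).

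At 4 SF3A1 sites both tables had a value, and since both use wild-type reads the values are set side by side with no test between them. At site 1 the authors' deposited tables gave 0.39 for mutant over wild-type and 1.20 for wild-type over scrambled. Site 2 had 0.23 for mutant over wild-type and 1.03 for wild-type over scrambled in the authors' deposited tables. At site 4 the same 2 quantities were 0.19 and 1.86 in the authors' deposited tables. In each of these 3 the difference between mutant and wild-type was smaller in size than that between wild-type and scrambled. At site 5 the signs differed, with 0.28 for mutant over wild-type and -0.16 for wild-type over scrambled in the authors' deposited tables. Added together, the estimates place the mutant over scrambled sequence at 1.59, 1.25, 2.05 and 0.12 at sites 1, 2, 4 and 5, if the same wild-type construct entered both tables. The mutant of site 5, although called higher than its wild-type, thus stood near scrambled sequence, at 1.13 times its odds, while the other sums correspond to 3.51- to 7.74-fold. These sums carry no error, since that of the shared wild-type reads is not known.

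Bonferroni adjustment over the mutant table kept 0 of the 3 SF3A1 mutant calls and 0 of the 2 pair calls, as did dividing z by its robust spread (3.92). That division kept 2 of 580 calls in the whole mutant table. The call at site 4 was lost as well with Benjamini-Yekutieli adjustment of the p that the authors deposited (adjusted p = 0.201) and at a threshold of 0.01.

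At HNRNPC the mutants called higher than wild-type changed neighbouring bases. The 1-base deletion had an estimate of 1.72 ± 0.38, which is 5.58-fold over wild-type (95% interval 2.67 to 11.7, adjusted p = 2.01e-05 by the authors' deposited table). For the C-to-A change of the base before it the authors' deposited table gave 0.53 ± 0.12, 1.70-fold with an interval of 1.35 to 2.15 (adjusted p = 3.01e-05). The T-to-C change of the base that the deletion removes had 0.40 ± 0.41 and was not called (interval of the odds ratio 0.661 to 3.35, adjusted p = 0.424 by the authors' deposited table). All 3 estimates were positive, but the last had a standard error at percentile 94.5 of the mutant table, and its interval covers both no change and the gain of the C-to-A change.

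The remaining HNRNPC mutants were not called. The 2-base deletion, which begins 3 bp before the C-to-A change, was listed by the authors' deposited table at -0.03 ± 0.25 (interval of the odds ratio 0.589 to 1.60, adjusted p = 0.942). At the other end of the region, the T-to-C change of mutant 1 had 0.07 ± 0.06 (adjusted p = 0.267 by the authors' deposited table). Its standard error was the smallest of the 15 constructs, at percentile 10.5 of the mutant table, and its interval ran from 0.963 to 1.20 in the odds ratio. The T-to-C change of mutant 2 had the lowest estimate at either locus, -0.42 ± 0.24, with an interval of 0.411 to 1.06 (adjusted p = 0.128 by the authors' deposited table).

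The 1-base deletion differed from every other HNRNPC mutant in two-sided z tests on the authors' errors. It was higher than the C-to-A change next to it by 1.19 ± 0.39 (adjusted p = 0.00580 on the authors' errors, over the same 1879 pairs). It was higher than the 2-base deletion by 1.75 ± 0.45 and higher than mutants 1 and 2 by 1.65 ± 0.38 and 2.14 ± 0.45. The T-to-C change of the same base was lower than the deletion, by -1.32 ± 0.56 (adjusted p = 0.0325 on the authors' errors). The pair of mutants that changed 1 base in common thus differed past the threshold with this adjustment. These z tests took the errors as independent, and whether the mutants shared a wild-type construct is not known here. The C-to-A change was also higher than mutants 1 and 2, by 0.46 ± 0.13 and 0.95 ± 0.27 (adjusted p = 0.00133 and 0.00109 on the authors' errors). Its difference from the 2-base deletion, 0.56 ± 0.28, missed the threshold (adjusted p = 0.0739 on the authors' errors). The T-to-C change beside it differed from it by -0.13 ± 0.43, with an interval of -0.98 to 0.71 that allows a difference of either sign. In all, 7 of 15 HNRNPC pairs differed, against the 59.2% over all same-region pairs. Bonferroni adjustment over the pairs kept 2 of the 7, the deletion against mutants 1 and 2, and ended the deletion's differences from its 3 neighbours.

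The 1-base deletion ranked 26 of 1025 mutants from the highest and 4 among the 64 mutants that lose 1 base, of which 20 were called higher and 19 lower in the authors' deposited table. Its standard error was at percentile 92.7 of the mutant table, and by z it stood at percentile 87.1, against 97.5 by the estimate. The 2-base deletion ranked 7 among 18 of its kind. The 6 HNRNPC mutants had a median of 0.24 and a range of 2.14, against 0.42 for the SF3A1 mutants. Among the 40 regions with at least 6 mutants, the HNRNPC median ranked 4 from the highest. HNRNPC was 1 of 3 such regions with higher calls and 0 lower calls, where 35 had both. It had the minimum of 6 mutants, and more mutants give more room for calls in both directions. Of the 40 regions, 32, HNRNPC among them, had at least 2 higher calls. The 2 of 6 mutants called, both higher, compare with 56.6% of all mutants called in either direction and 29.5% called higher, so the share called higher was near that of the table. With 0 wild-type rows for this region, the activity of its wild-type sequence against scrambled sequence was not analysed here. Both HNRNPC calls were kept with Bonferroni adjustment of the authors' p, at adjusted p = 0.00509 for the deletion and 0.00797 for the C-to-A change. With z divided by its robust spread, 0 of the 2 calls and 0 of the 7 pair calls were kept, where 2 of 580 calls were kept in the whole mutant table.

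Of a list of 102 splicing genes, 4 had a region in the tables that overlapped them or had them as the nearest protein-coding gene, SF3A1, HNRNPC, HNRNPF and HNRNPR. HNRNPF, whose protein binds runs of guanine in RNA, had a region inside the gene (chr10:43396832-43397183) and another 3631 bp away (chr10:43412817-43413878). In the region inside HNRNPF, 2 of 4 mutants were called higher and 1 lower by the authors' deposited table, with estimates of -0.20 to 0.65. In the other HNRNPF region 0 of 2 mutants were called, and both wild-type constructs were called lower than scrambled, at -1.01 and -0.64 by the authors' deposited table. A region 1865 bp from HNRNPR, another gene of the hnRNP family (chr1:23346149-23349256), had 11 mutants with 3 higher calls and 1 lower by the authors' deposited table, and a highest estimate of 1.12. Its 11 wild-type constructs ran from -0.80 to 0.52, with 4 called higher and 4 lower by the authors' deposited table. The median wild-type estimate was 1.11 at SF3A1, 0.06 at HNRNPR and -0.83 at HNRNPF, a difference between loci that was not tested.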

How the data were processed

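The files were 2 tables of comparisons made by the authors, wild-type against scrambled (358 constructs) and mutant against wild-type sequence (1025). Per the file headers, the deposited estimate comes from a logit model, and it was read as a natural log odds ratio. Beside it the authors deposited a z value, which is a score, a p-value and a q-value. Recomputation from z with a two-sided normal test gave the deposited p-value, and Benjamini-Hochberg adjustment over the table gave the deposited q-value. The submitters' processing notes name Bowtie2 and hg38 with no role. Barcode filters, construct length, construct placing and the scrambled sequence itself were not used here.

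The standard error is the estimate divided by z. Pairs of constructs of a region were compared by z tests with errors taken as independent, adjusted over all such pairs of the table. Gene positions come from RefSeq (GRCh38.p14). Region starts were raised by 1 to count from 1. Analysis used Python 3.11.15, numpy 2.4.6, scipy 1.17.1 and pandas 2.3.3, and the steps were tested on simulated data. Every construct of both regions is described. The members, the splicing list and the tests were chosen with earlier results of these data known, and the 50 bp spacing after values were seen. Mutation positions are not printed, nor any sequence, since no genome was used. Alternatives covered the adjustment, the threshold, the spread of z, estimates beyond 10 in size (5 and 13 constructs, 0 of them described here) and ranking by z. Marker genes of the line are not measured by these tables.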

Additional observations from a re-analysis of the deposited data

How the results depend on the processing

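These alternatives leave the estimates as they are and change calls or ranks. Bonferroni adjustment left 120 of 223 wild-type calls and 306 of 580 mutant calls in the whole tables, with 1 of 3 at SF3A1 wild-type sites and 0 of 3 at SF3A1 mutants, while both HNRNPC calls were kept. For pairs it left 267 of 493 wild-type and 564 of 1112 mutant calls, with 1 of 3 at SF3A1 wild-type sites, 0 of 2 at SF3A1 mutants and 2 of 7 at HNRNPC. Dividing z by its robust spread left 4 wild-type and 2 mutant calls in the whole tables and 0 at SF3A1 in either table and at HNRNPC. The same widening of errors left 4 wild-type pairs and 0 mutant pairs over the whole tables, and 0 at SF3A1 and HNRNPC. Ranked by z in place of the estimate, the median SF3A1 wild-type construct stood at percentile 76.8, against 93.9 by the estimate. Benjamini-Yekutieli adjustment ended 2 calls, at 1.20 ± 0.42 (wild-type, SF3A1) and 0.19 ± 0.08 (mutant, SF3A1), and a threshold of 0.01 ended the second of these. No adjustment, adjustment over both tables together and leaving out estimates beyond 10 in size changed 0 of the 15 constructs' calls. No paired analysis was possible because the tables give no values per replicate, and for the same reason leaving out each replicate was not run. Depth limits cannot be stated, since the tables hold no counts.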
